A study of Homo sapiens with 4 samples.

Results

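The protein arginine methyltransferases (PRMTs) and WDR77, the partner protein of PRMT5, were examined by RNA-seq in A549 cells (a line from a human lung adenocarcinoma) sorted by antibody staining for ICAM1, a cell surface protein to which leukocytes adhere. The genes were taken by name from a list of 10 (PRMT1, PRMT2, PRMT3, PRMT5, PRMT6, PRMT7, PRMT8, PRMT9, CARM1 and WDR77), and all 10 were found among the 58735 genes of the table. The members were chosen by name, but with earlier values of the ICAM1-high against ICAM1-low contrast in these same libraries in view. The differences of these 10 genes between the subsets are therefore given as a description, without p-values. Statements below that a member passed or did not pass the test threshold are part of that description. The 4 libraries came from 2 subsets with 2 replicates each, ICAM1-high and ICAM1-low. Both subsets carried the label wild-type and came from one culture medium, DMEM with fetal bovine serum and antibiotics, and both were stained with an anti-ICAM1 antibody, so they differ by the sort gate alone as far as the labels go. The labels do not say whether replicates were separate cultures, so the errors and p-values reflect variation among the libraries that may be technical only.

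PRMTs transfer methyl groups from S-adenosylmethionine to arginine residues of histones, splicing factors and other RNA-binding proteins. Type I enzymes (PRMT1, PRMT2, PRMT3, CARM1, PRMT6 and PRMT8) form asymmetric dimethylarginine, type II enzymes (PRMT5 and PRMT9) form symmetric dimethylarginine, and the type III enzyme PRMT7 stops at monomethylarginine. PRMT5 works in a complex with WDR77, also known as MEP50, and other adaptors bring substrates such as the Sm proteins of spliceosomal snRNPs to that complex. PRMT5 is known to be sensitive to methylthioadenosine, which accumulates in tumour cells that have lost the neighbouring genes CDKN2A and MTAP, and A549 is known as such a line.

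The ICAM1 gene checked the sort. It was at 116 and 110.4 CPM in the ICAM1-high libraries and at 4.61 and 4.89 CPM in the ICAM1-low libraries. CPM here are counts per 1e6 after TMM scaling, a scaling that sets the bulk of genes level between libraries. Total counts ranged from 16272591 to 17638647 per library, so that 3 counts, taken as the floor of detection, correspond to 0.161 to 0.196 CPM (counting error only). Both ICAM1-high libraries go against the cell line label at the deleted region: MTAP had 459 and 463 counts in ICAM1-high and 1 and 8 counts in ICAM1-low. CDKN2A had 1009 and 1214 counts in ICAM1-high and 0 in both ICAM1-low libraries, and CDKN2B had 174 and 182 against 0. Other transcripts known from A549, a list of 10 of which 9 were tested, 2 higher and 6 lower in ICAM1-high, summed to 14619 and 14885 CPM in ICAM1-high and to 19769.7 and 20335 CPM in ICAM1-low. ALDH1A1 was the largest part of that sum in every library. KRT8 and KRT18 went the other way. KRT8 had 56164 and 57555 counts in ICAM1-high against 20518 and 19439, and KRT18 had 23107 and 23480 against 16240 and 15701. Markers of fibroblasts (10 listed) summed to 32.6 and 36.6 CPM in ICAM1-high and to 5.24 and 6.52 CPM in ICAM1-low, with COL1A2, COL3A1, DCN and POSTN at no more than 3 counts in any library. COL1A1 alone had 505 and 551 counts against 60 and 66 and carried most of that sum. Endothelial markers (10) summed to 26.5 and 30.7 against 8.74 and 9.72 CPM, with KDR, TEK and EMCN at no more than 3 counts. ENG carried most of the ICAM1-high sum (284 and 346 counts against 64 and 44), and ESAM went the other way (53 and 65 against 73 and 75). Leukocyte markers (10) summed to 24.8 and 26.0 against 18.5 and 19.4 CPM, and PTPRC, CD3E and MS4A1 were at 0 in every library. CD14 carried most of the ICAM1-high sum (343 and 343 counts against 146 and 146). ITGAM went the other way (128 and 103 against 133 and 140). Neuronal markers (10) summed to 107 and 117 against 188 and 189 CPM, with STMN2 and ELAVL4 at 0. Of the 6 tested, 4 were lower and 0 higher in ICAM1-high. SNAP25 was the largest part of that sum (892 and 838 counts against 1219 and 1251). NEFL (178 and 143 counts against 122 and 114) and TUBB3 (51 and 73 against 46 and 42) did not follow it. The part of these markers, and of cells with an intact CDKN2A and MTAP region, in the results below was not tested. In RNA of sorted populations, fewer cells of a kind and less RNA per cell cannot be told apart.

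Sequences of 4 promoters are shown because these genes stand for the patterns described below: PRMT6 for near absence in ICAM1-low, PRMT1 for the most abundant enzyme and the lower level in ICAM1-high, and PRMT5 and WDR77 for partners of which WDR77 passed the threshold and PRMT5 did not. Each runs 5′ to 3′ on the gene's strand, from 250 bases before to 50 after the RefSeq start (GRCh38.p14). PRMT6 lies on the plus strand at chr1:107056424-107056723, with CpG dinucleotides in capitals. PRMT1 lies on the plus strand at chr19:49677021-49677320 and PRMT5 on the minus strand at chr14:22929327-22929626, both with ATTGG, the core of the CCAAT box, in capitals on either strand. WDR77 lies on the minus strand at chr1:111449207-111449506, with CTCGCGAG in capitals.
PRMT6: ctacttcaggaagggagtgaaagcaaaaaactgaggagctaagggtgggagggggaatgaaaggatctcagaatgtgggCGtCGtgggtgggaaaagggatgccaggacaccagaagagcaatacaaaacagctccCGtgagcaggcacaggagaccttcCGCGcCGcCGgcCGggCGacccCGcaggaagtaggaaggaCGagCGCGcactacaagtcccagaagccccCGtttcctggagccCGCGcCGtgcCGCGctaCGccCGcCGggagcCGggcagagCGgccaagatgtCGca
PRMT1: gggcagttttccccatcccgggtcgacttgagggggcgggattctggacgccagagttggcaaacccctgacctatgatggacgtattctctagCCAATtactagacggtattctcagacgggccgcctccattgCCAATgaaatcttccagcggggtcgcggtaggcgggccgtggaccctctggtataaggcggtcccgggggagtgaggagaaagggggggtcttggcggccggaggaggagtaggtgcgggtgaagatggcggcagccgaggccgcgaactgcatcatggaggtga
PRMT5: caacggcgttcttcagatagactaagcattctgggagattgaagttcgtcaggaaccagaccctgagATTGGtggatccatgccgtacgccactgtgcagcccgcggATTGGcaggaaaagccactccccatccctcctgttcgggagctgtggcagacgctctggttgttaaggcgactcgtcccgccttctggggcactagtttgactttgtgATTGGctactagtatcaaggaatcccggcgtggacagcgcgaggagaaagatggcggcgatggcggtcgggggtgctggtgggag
WDR77: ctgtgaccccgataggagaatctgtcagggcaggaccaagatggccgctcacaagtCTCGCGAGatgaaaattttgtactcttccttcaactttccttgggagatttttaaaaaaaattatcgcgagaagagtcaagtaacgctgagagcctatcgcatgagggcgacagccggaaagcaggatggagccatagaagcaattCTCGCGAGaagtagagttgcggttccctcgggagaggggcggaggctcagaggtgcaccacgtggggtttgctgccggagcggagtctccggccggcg

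All 10 genes had a promoter in the RefSeq table. The PRMT6 promoter held 25 CpG dinucleotides, against a median of 14 over 35116 promoters of the same length, and stood at percentile 68.9 of them. In the others the count ranged from 20 for PRMT5 to 56 for the first of 2 CARM1 starts, apart from the first of 2 PRMT8 starts with 1 CpG. PRMT8 was below the floor of detection in every library, and its second start held 30. Whether CpG counts go with levels was not tested. A search on both strands for 8 motifs was made after the sequences had been seen. The palindrome CTCGCGAG occurred 2 times in the WDR77 promoter and in 1.0% of all promoters. The pentamer ATTGG occurred 3 times in the PRMT5 and 2 times in the PRMT1 promoter, once in the first PRMT8 start, and in 34.6% of all promoters. The E-box CACGTG was present once in WDR77 and once in PRMT3, beside 7.3% of all promoters. The ETS-type motif CCGGAAG was present once in PRMT3 (10.3%), and the CRE-type motif TGACGT 2 times in PRMT9 (8.0%). The E2F-type motif TTTCCCGC was present in the second PRMT7 start (1.6%). The TATA motif TATAAA (11.5%) was in no member. The remaining motif was GCATGC (7.2%), also in no member. The PRMT6 promoter held none of the 8. Such matches describe the letters in these windows and say nothing about binding.

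PRMT6 differed most between the subsets. It encodes a nuclear type I enzyme that methylates the tail of histone H3, and GENCODE 29 places it on chromosome 1 (107056679 to 107067636, plus strand, GRCh38, ENSG00000198890), with the tag retrogene. PRMT6 had 437 and 432 counts in the ICAM1-high libraries, or 23.4 and 23.5 CPM. In ICAM1-low it had 0 counts in replicate 1 and 1 count in replicate 2. The libraries of a subset lay close together and the subsets were far apart. The ratio of the pooled levels was 727 with a 95% exact binomial interval of 130.2 to 28764, which covers counting error only. The fitted log2 fold change was 9.21, with 8.33 without ICAM1-low replicate 1 and 11.68 without ICAM1-low replicate 2, and depends on the prior count of the fit. PRMT6 met the filter on low counts only because of its ICAM1-high libraries, so being tested already meant that it differed. It is among 81 genes of the table with at most 3 counts in ICAM1-low and at least 100 in ICAM1-high. CDKN2A and CDKN2B are in that set too, and the reverse pattern was found for 0 genes.

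The surroundings of PRMT6 were examined after its values had been seen. Within 1 Mb on either side the table lists 13 other genes, and 11 of them had 0 counts in every library. The nearest coding gene, NTNG1, 72.4 kb away, was among those at 0. VAV3, 504 kb away, was detected in both subsets. The ICAM1-high libraries had 31.1 and 32.3 CPM of VAV3 and the ICAM1-low libraries 8.51 and 7.76 CPM. VAV3 rose by 1.96 on the log2 scale (standard error, SE, 0.11; adjusted p = 6.95e-25 by the quasi-likelihood test of edgeR, with Benjamini-Hochberg adjustment over all genes). Its ICAM1-low level was thus well above the floor, unlike that of PRMT6. No stretch of 50 bases in the PRMT6 transcripts occurs in a transcript of another gene, and no other annotated gene overlaps it.

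**Figure D1:**
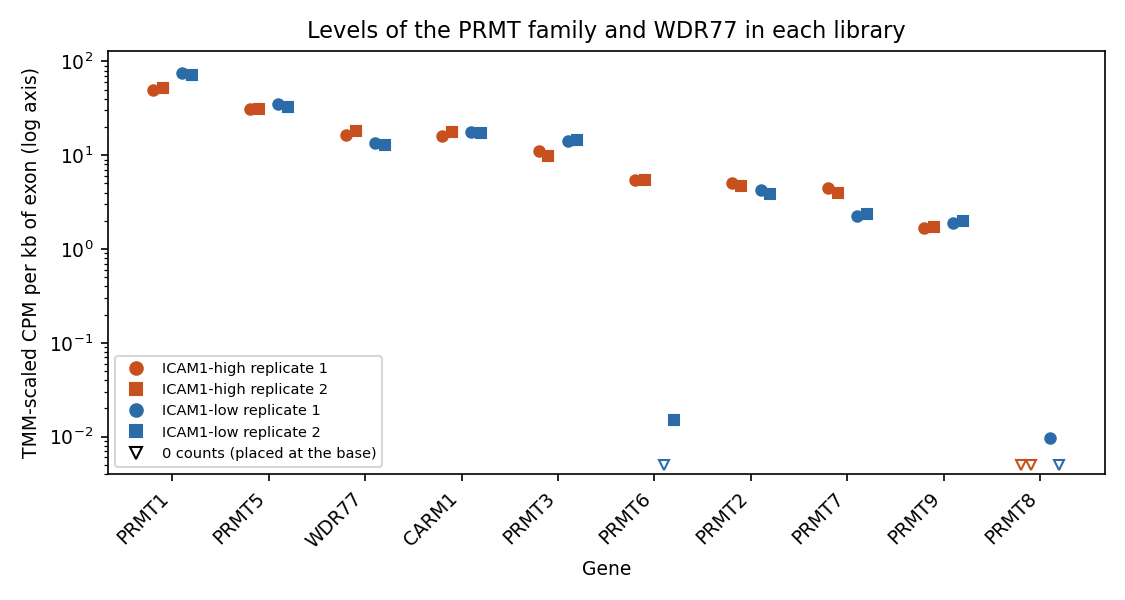
TMM-scaled CPM per kb of merged exon (log axis) for the 10 genes, ordered by their mean in ICAM1-high, with 1 point per library (orange, ICAM1-high; blue, ICAM1-low; circles, replicate 1; squares, replicate 2; open triangles, 0 counts, placed at the base of the axis). PRMT1 leads in all 4 libraries, PRMT6 is at 5.41 and 5.43 in ICAM1-high and at or near 0 in ICAM1-low, and PRMT8 is at or near 0 throughout.

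Among the other type I enzymes, PRMT1 and PRMT3 were lower and PRMT2 was higher in ICAM1-high. PRMT1, the main source of asymmetric dimethylarginine in most cells (chromosome 19, 49675786 to 49689029, plus strand), was at 240.4 and 247 CPM in ICAM1-high. In ICAM1-low it was at 360.3 and 346 CPM. The subsets did not overlap, and the log2 fold change was -0.53 (SE 0.04). PRMT3, a cytosolic enzyme whose known substrate is the ribosomal protein RPS2 (chromosome 11, 20387530 to 20509294, plus strand), was at 61.1 and 53.9 CPM in ICAM1-high and at 77.7 and 78.8 CPM in ICAM1-low. The difference was -0.44 on the log2 scale (SE 0.06), and both ICAM1-high libraries lay below both others although they differed from each other more than the ICAM1-low pair. PRMT2, a weakly active enzyme with an SH3 domain (chromosome 21, 46635167 to 46665124, plus strand), was at 40.6 and 37.7 against 33.9 and 31.0 CPM. The subsets were separated by less than 4 CPM, and the log2 fold change of 0.27 (SE 0.08) did not pass the threshold without ICAM1-low replicate 2 (0.20). CARM1, a coactivator of nuclear receptors (chromosome 19, 10871513 to 10923070, plus strand), was at 72.3 and 79.8 CPM in ICAM1-high and at 79.8 and 76.1 CPM in ICAM1-low. Its libraries overlapped, and the log2 fold change of -0.04 (SE 0.06) did not pass the threshold. PRMT8, a membrane-bound relative of PRMT1 known from the brain (chromosome 12, 3381349 to 3593973, plus strand), had 1 count in ICAM1-low replicate 1 and 0 elsewhere. It was below the floor in every library and was not tested.

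The type II enzymes and WDR77 did not move together. PRMT5 (chromosome 14, 22920511 to 22929585, minus strand) was at 109 CPM in each ICAM1-high library and at 121 and 113 CPM in the ICAM1-low libraries. The ICAM1-high libraries were slightly below both ICAM1-low libraries, at a log2 fold change of -0.11 (SE 0.05) that did not pass the threshold. WDR77, which holds PRMT5 in its octameric complex and binds its substrates (chromosome 1, 111439890 to 111449376, minus strand), was at 46.0 and 50.6 CPM in ICAM1-high and at 37.9 and 35.6 CPM in ICAM1-low. It was higher in both ICAM1-high libraries, with a log2 fold change of 0.39 (SE 0.08). Within a library, the level of WDR77 per kb was 0.522 and 0.577 of that of PRMT5 in ICAM1-high and 0.386 and 0.390 in ICAM1-low, so the ratio was higher in ICAM1-high. This ratio does not depend on scaling between libraries, but its size depends on the length used. Per kb of the longest transcript instead of merged exon, it was 0.415 and 0.458 in ICAM1-high and 0.306 and 0.310 in ICAM1-low. PRMT9, which methylates the splicing factor SF3B2 (chromosome 4, 147637785 to 147684230, minus strand), was at 6.76 and 6.92 CPM against 7.68 and 8.02 CPM. Its log2 fold change of -0.20 (SE 0.17) did not pass the threshold.

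PRMT7, the type III enzyme (chromosome 16, 68310974 to 68358563, plus strand), had the largest difference after PRMT6. It was at 42.4 and 37.4 CPM in ICAM1-high and at 21.3 and 22.2 CPM in ICAM1-low. Both ICAM1-high libraries were well above the other pair, and the log2 fold change was 0.88 (SE 0.09). Of the 10 genes, 9 passed the expression filter, PRMT6 only through its ICAM1-high libraries. Of these 9, 4 were higher, 2 lower and 3 not past the threshold of an adjusted p under 0.05 in edgeR's quasi-likelihood test over 16250 genes. In that test 59.7% of all genes passed, 30.4% higher and 29.4% lower, so a count of 6 in 9 is near the background. A difference of at least 1.5-fold was found for PRMT6 and PRMT7 alone among the 9, beside 29.6% of all genes. The libraries of the subsets did not overlap for 8 of the 9, CARM1 being the exception, and did not overlap for 78.3% of all genes (40.1% higher, 38.3% lower). The median log2 fold change of the 9 was -0.04, beside 0.012 over all genes tested. Nothing is read from these counts, since the genes were listed with this contrast known.

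Scaling matters for the smaller differences. With scaling by library size alone, the fold changes of all genes moved up by 0.17 (log2) at their median. PRMT5 then stood at 0.07 (SE 0.05) and CARM1 at 0.14 (SE 0.06), both reversed in sign, and CARM1 passed the threshold. PRMT9 stood at -0.03 (SE 0.17). PRMT1 (-0.36) and PRMT3 (-0.27) stayed lower, and PRMT2 (0.45), WDR77 (0.57) and PRMT7 (1.05) stayed higher under this scaling.

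**Figure D2:**
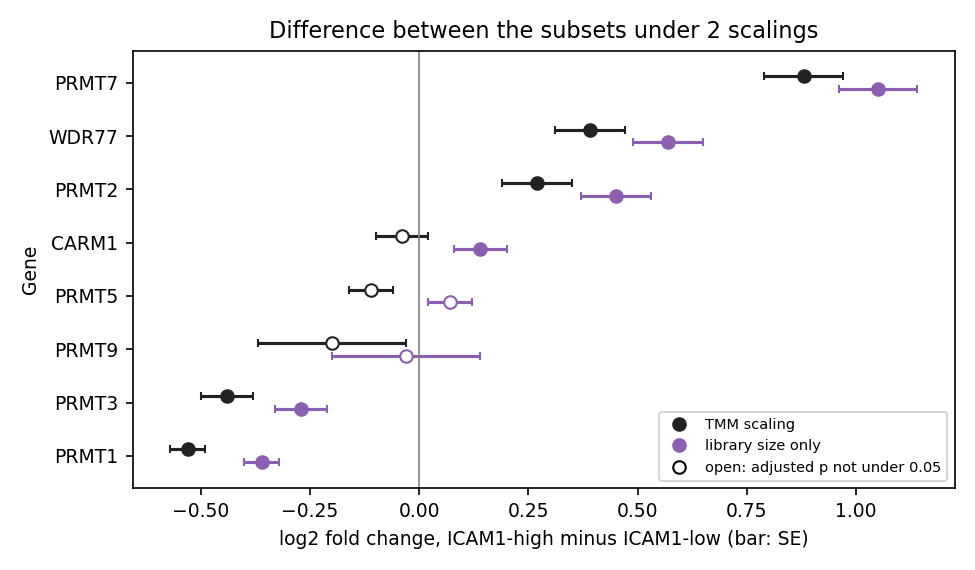
Log2 fold change, ICAM1-high minus ICAM1-low, with SE as bars, for the 8 tested genes other than PRMT6, under TMM scaling (black) and scaling by library size alone (purple); open points have an adjusted p that is not under 0.05. PRMT1 and PRMT3 lie below 0 and PRMT2, WDR77 and PRMT7 above 0 under both scalings, whereas PRMT5 and CARM1 change sign.

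Levels of different genes can be set side by side only per length of transcript. On the scale of CPM per kb of merged exon, PRMT1 was first in every library, at 50.9 ± 1.03 (SD, n = 2) in ICAM1-high and 73.6 ± 2.11 (SD, n = 2) in ICAM1-low. PRMT5 was the next, at 31.4 ± 0.0804 and 33.8 ± 1.75. In ICAM1-high WDR77 (17.2 ± 1.17) and CARM1 (17.1 ± 1.18) followed and did not differ beyond their spread, then PRMT3 (10.5 ± 0.932), PRMT6 (5.42 ± 0.0125), PRMT2 (4.88 ± 0.254), PRMT7 (4.22 ± 0.372) and PRMT9 (1.70 ± 0.0273). In ICAM1-low the order was CARM1 (17.5 ± 0.592), PRMT3 (14.3 ± 0.144), WDR77 (13.1 ± 0.571), PRMT2 (4.04 ± 0.258), PRMT7 (2.30 ± 0.065) and PRMT9 (1.95 ± 0.0606), and all of these neighbours lay apart by more than their SDs. PRMT6 and PRMT8 came last in ICAM1-low, both under the floor, and could not be ordered. Merged exon lengths run from 2805 bases for WDR77 to 9458 for PRMT7. Divided instead by the longest transcript tagged as an APPRIS principal one, a choice made after seeing the data, PRMT1 was at 175 and 253 CPM per kb. PRMT3 then moved ahead of CARM1 in the mean of the 4 libraries. In ICAM1-high, PRMT6 came after PRMT2 and PRMT7 with APPRIS lengths (8.98, 13.6 and 9.41). It did so too with the longest transcript of any kind (8.65, 9.72 and 9.41). CARM1 (22.8) stood above WDR77 (18.8) in ICAM1-high with both lengths, and PRMT3 (21.7) did so with APPRIS lengths.

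The make-up of the family was then expressed as each enzyme's share of the summed CPM per kb of the 9 enzymes, which does not depend on scaling between libraries. PRMT1 accounted for 39.9% and 40.8% of the sum in the ICAM1-high libraries and for 49.9% ± 0.071 (SD, n = 2) in ICAM1-low. Its share was lower in both ICAM1-high libraries. PRMT6 accounted for 4.31% and 4.29% in ICAM1-high and for 0% and 0.0104% in ICAM1-low. PRMT7 accounted for 3.57% and 3.13% against 1.49% and 1.62%, and PRMT5 for 25.0% and 24.8% against 23.2% and 22.5%. The sum itself, after TMM scaling, was 126 ± 0.617 CPM per kb (SD, n = 2) in ICAM1-high and 148 ± 4.44 in ICAM1-low. A higher share is thus not a higher level: PRMT5 was at 31.4 CPM per kb in ICAM1-high and 33.8 in ICAM1-low. All type I enzymes together made up 70.4% ± 0.482 (SD, n = 2) in ICAM1-high and 74.2% ± 0.327 (SD, n = 2) in ICAM1-low, type II 26.2% ± 0.171 and 24.2% ± 0.418, and type III 3.35% ± 0.312 and 1.56% ± 0.091. With the APPRIS lengths the type I shares were 81.7% and 85.6%. The shares thus depend on the length used, but were lower in ICAM1-high under each of the 3 lengths tried.

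**Figure D3:**
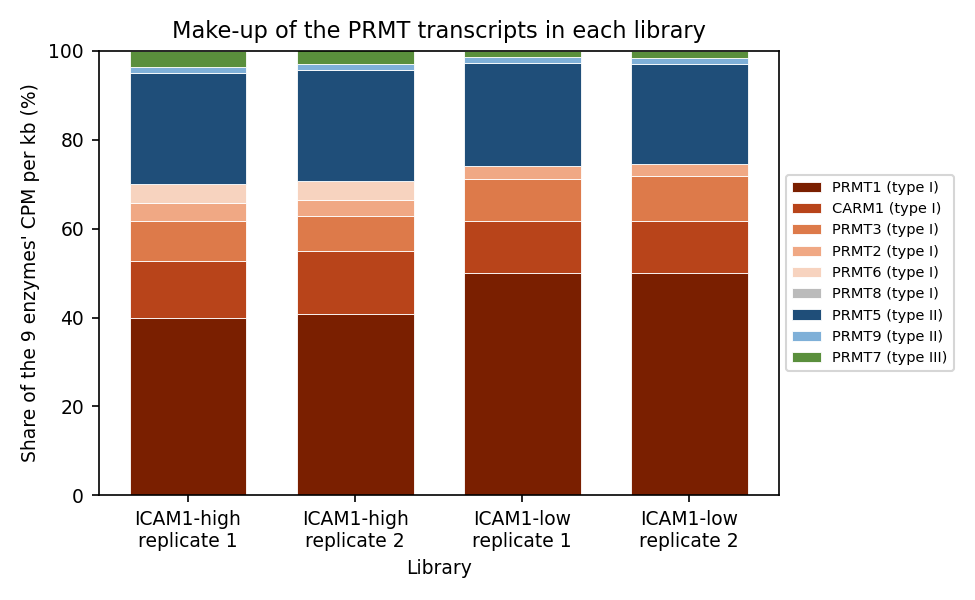
Share of each of the 9 enzymes in their summed CPM per kb of merged exon, in percent, as stacked bars for the 4 libraries (reds and grey, type I; blues, type II; green, type III). PRMT1 takes 39.9% and 40.8% in ICAM1-high and 49.9% on average in ICAM1-low, and PRMT6 is visible in the ICAM1-high bars only.

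Several members share sequence or position with other annotated genes, and the strand setting of the counting is not given in the sources used here. Of the bases in merged WDR77 exons, 12.5% overlap exons of ATP5PB, an ATP synthase subunit gene on the opposite strand, and 24.0% those of a sense-overlapping gene with 2 to 5 counts per library. ATP5PB had 2371 and 2298 counts in ICAM1-high and 1674 and 1596 in ICAM1-low, so it moved the same way as WDR77, and its part in the WDR77 counts was not tested. CARM1 exons overlap YIPF2 over 19.9% of their bases, on the opposite strand, and YIPF2 had 342 and 385 counts against 182 and 214. PRMT5 exons overlap PRMT5-AS1 over 27.1%, but this antisense gene had 1 to 9 counts per library. PRMT1 exons overlap ADM5 over 7.6% on the same strand, at 72 to 101 counts per library. The pseudogenes PRMT1P1, PRMT5P1 and CARM1P1 had 0 counts in all libraries. PRMT2, PRMT3, PRMT6 and PRMT9 shared no stretch of 50 bases with another gene's transcripts.

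The other genes of arginine methylation were taken from 10 lists of 91 different genes, of which 86 could be tested. Of these, 29 rose and 24 fell in ICAM1-high, 61.6% in all beside 59.7% of all genes, with a median log2 fold change of 0.03. Adjusted p-values below are from edgeR's quasi-likelihood test over all genes. The lists were chosen with earlier results of these data known. Genes named below were fixed by role or as up to 4 per list with the smallest adjusted p, except where stated. Their p-values are therefore descriptive and lend no weight to a list as a whole. The split was 54 and 14 when scaled by library size alone, under which all genes also shifted, to 6735 higher and 3124 lower. Under that scaling, 6 readers rose and 2 fell, against 8 and 1 in the SMN complex, 4 and 0 in demethylation and deimination, and 3 and 1 among Sm proteins.

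Among 5 genes listed with PRMT5 (adaptors, cofactors and other partners), 2 rose, RIOK1 and STUB1, and 1 fell, COPRS. Among all genes 30.4% were higher and 29.4% lower. RIOK1, which competes with CLNS1A for PRMT5 and brings nucleolin to it, averaged 38.8 ± 0.940 CPM (SD, n = 2) in the ICAM1-high pair and 20.8 ± 0.0548 CPM in the other. It rose by 0.90 on the log2 scale (SE 0.09, adjusted p = 3.47e-14). CLNS1A, also called pICln, which presents Sm proteins for methylation, was at 79.1 ± 4.79 and 82.2 ± 3.72 CPM and did not pass the test (-0.05, SE 0.06, adjusted p = 0.455). COPRS, which directs PRMT5 to histones, fell by 0.25 (SE 0.09, adjusted p = 0.0136), a call that was lost with DESeq2 (adjusted p = 0.0968), with scaling by library size (-0.08) and without ICAM1-high replicate 1 or ICAM1-low replicate 1. STUB1, a ubiquitin ligase of chaperone-bound proteins, rose by 0.29 (SE 0.09, adjusted p = 0.00373), but not in DESeq2 (adjusted p = 0.0525) or without ICAM1-low replicate 1 (0.21). PRDM1, a repressor that binds PRMT5, was at a log2 fold change of -0.18 (adjusted p = 0.218). By library size alone, 2 of the 5 rose and 0 fell, under which all genes also shifted (6735 higher, 3124 lower).

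Of 11 partners of PRMT1 and CARM1, 7 fell and 2 rose, with a median log2 fold change of -0.32, beside 29.4% lower and 30.4% higher among all genes and an all-gene median of 0.012. NCOA3, a nuclear receptor coactivator that works with CARM1, averaged 320.1 ± 8.05 CPM in the ICAM1-high pair and 586 ± 13.2 CPM in the other (-0.87, SE 0.04, adjusted p = 5.65e-30). BTG1, an antiproliferative protein that binds PRMT1, was at 69.0 ± 9.60 and 177 ± 0.431 CPM (-1.36, SE 0.06, adjusted p = 1.22e-24). The acetyltransferase genes EP300 and CREBBP fell by 0.38 (SE 0.05) and 0.32 (SE 0.05). Scaled by library size alone, 6 of these genes fell and 3 rose. Of 2 further arginine methyltransferases outside the PRMT family, METTL23, which acts on histone H3, fell by 0.58 (SE 0.09, adjusted p = 3.33e-08). NDUFAF7, which methylates a subunit of mitochondrial complex I, was at -0.11 (SE 0.10, adjusted p = 0.341).

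Genes that supply S-adenosylmethionine or clear its products rose in 6 of 9 cases, MTAP among them, and fell in 2, beside 30.4% and 29.4% of all genes. Scaled by library size alone, 7 rose and 0 fell, under which all genes also shifted (6735 higher, 3124 lower). MTAP, which clears methylthioadenosine, averaged 24.9 ± 0.413 CPM in the ICAM1-high pair and 0.293 ± 0.324 CPM in the other. The fitted log2 fold change of MTAP was 6.39, with 5.55 without ICAM1-low replicate 1 and 8.44 without ICAM1-low replicate 2. As for PRMT6, MTAP was tested only because of its ICAM1-high counts, so no p-value is given. MAT2A, which makes S-adenosylmethionine in most tissues, was at 459.8 ± 3.12 and 396 ± 4.92 CPM (0.22, SE 0.04, adjusted p = 2.88e-06). AHCY, which splits S-adenosylhomocysteine, a general inhibitor of methyltransferases, was at 296 ± 3.70 and 344 ± 3.54 CPM (-0.22, SE 0.04, adjusted p = 6.91e-06), a call lost with scaling by library size (-0.04). AHCYL2, a relative of AHCY, rose by 0.99 (SE 0.06), and MTRR, which reactivates methionine synthase, rose by 0.58 (SE 0.06). MTAP, like PRMT6, had almost no counts in ICAM1-low, whereas MAT2A and AHCY were abundant in both subsets.

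**Figure D4:**
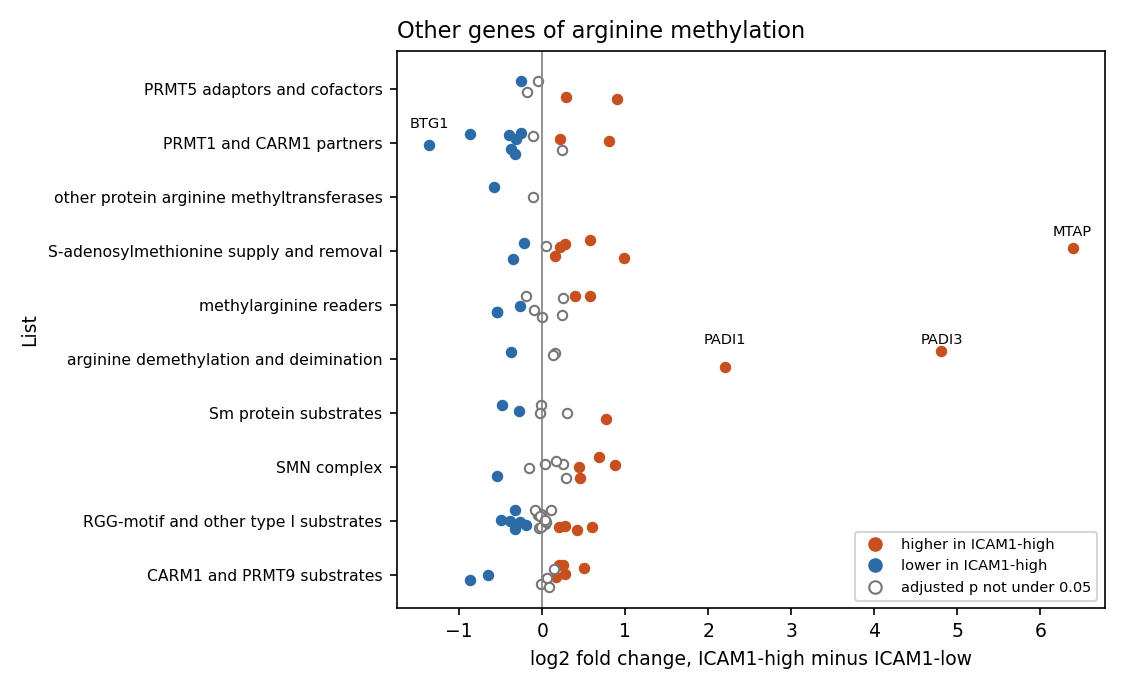
Log2 fold change, ICAM1-high minus ICAM1-low, of the tested genes in 10 lists of arginine methylation genes, 1 point per gene with vertical scatter for legibility (orange, higher; blue, lower; open, adjusted p not under 0.05); TDRD9, at 0 counts in ICAM1-low, is left out, and genes in 2 lists appear in each. MTAP (6.39), PADI3 (4.81) and PADI1 (2.20) lie far to the right and BTG1 (-1.36) far to the left, and most others lie within 1 of 0.

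Of 11 readers of methylarginine tested, 3 rose, TDRD9 among them, and 3 fell, beside 30.4% higher and 29.4% lower among all genes. TDRD9, a Tudor-domain helicase of the germline, had 159 and 175 counts in ICAM1-high and 0 in each ICAM1-low library. It too was tested only because of its ICAM1-high counts. SND1, a Tudor nuclease that binds symmetric dimethylarginine, rose by 0.58 (SE 0.05, adjusted p = 8.03e-18). SMNDC1, a splicing factor, fell by 0.54 (SE 0.07), and SPIN1, a histone reader, fell by 0.27 (SE 0.06), or by 0.10 without passing the test when scaled by library size. In the SMN complex, which loads methylated Sm proteins onto snRNAs, 4 of 10 rose and 1 fell, beside the same shares of all genes. DDX20 (0.88, SE 0.10), GEMIN4 (0.68, SE 0.06) and GEMIN5 (0.46, SE 0.06) rose. SMN1 fell by 0.54 (SE 0.11), while its near-identical copy SMN2, named after its values were seen, was at 0.25 (SE 0.17, adjusted p = 0.207). Reads can be split between these copies, and their sum was 21.0 and 21.1 CPM in ICAM1-high and 28.3 and 23.3 CPM in ICAM1-low.

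Enzymes linked to arginine demethylation or deimination, and to the breakdown of free methylarginines, rose in 2 of 5 tested cases and fell in 1. The list held 8, and among all genes 30.4% were higher and 29.4% lower. The enzymes of this list that rose were PADI3 and PADI1, peptidylarginine deiminases that convert arginine to citrulline. PADI3 had 168 and 209 counts in ICAM1-high and 4 and 7 in ICAM1-low, with a fitted log2 fold change of 4.81. It too was tested only because of its ICAM1-high counts, so no p-value is given. PADI1 was at 3.44 ± 0.609 and 0.744 ± 0.147 CPM (2.20, SE 0.34, adjusted p = 6.42e-08). JMJD6, a hydroxylase for which arginine demethylation has been reported, was at 50.5 ± 4.66 and 45.4 ± 1.30 CPM (0.15, SE 0.07, adjusted p = 0.0636). It passed the test with scaling by library size (0.33), with a filter at 1 CPM (0.17) and without ICAM1-high replicate 1 (0.24). DDAH2, of the dimethylarginine dimethylaminohydrolase family, fell by 0.38 (SE 0.12, adjusted p = 0.00329), a call lost with DESeq2 (adjusted p = 0.0531), with scaling by library size (-0.21) and without ICAM1-high replicate 1 (-0.23).

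Substrates of the enzymes moved in both directions, as did all genes (30.4% higher and 29.4% lower). Of 6 Sm and related proteins methylated by PRMT5, SNRPD3 rose by 0.77 (SE 0.07, adjusted p = 1.55e-15), SNRPB fell by 0.48 (SE 0.04, adjusted p = 4.28e-15) and SNRPD1 fell by 0.28 (SE 0.07). The SNRPD1 call was lost with scaling by library size (-0.10) and without ICAM1-low replicate 1 (-0.20). SNRPN was at 0.30 (SE 0.20, adjusted p = 0.203), and 3 of the 6 did not pass the test. Of 20 type I substrates, most with arginine and glycine repeats, 4 rose, 6 fell and 10 did not pass, at a median of -0.03. FBL, the nucleolar fibrillarin, fell by 0.50 (SE 0.04) and RPS2, the substrate of PRMT3, by 0.33 (SE 0.04), while HNRNPA1 rose by 0.42 (SE 0.04) and the DNA repair nuclease MRE11 by 0.60 (SE 0.08). Scaled by library size alone, 14 of these 20 rose and 3 fell, under which all genes also shifted (6735 higher, 3124 lower). Of 11 substrates of CARM1 or PRMT9, 5 rose and 2 fell. PABPC1, the poly(A)-binding protein, was at 798 ± 14.6 and 1255 ± 29.2 CPM (-0.65, SE 0.04, adjusted p = 1.3e-24), and SF3B2, the known substrate of PRMT9, rose by 0.27 (SE 0.04). By library size alone, 9 of the 11 rose and 2 fell, with the same shift of all genes.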

How the data were processed

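RNA-seq counts of 4 libraries (2 per subset) were used. The authors deposited raw counts per gene as whole numbers. Per the labels, a SMARTer mRNA-Seq kit was used on Trizol-extracted RNA. The build GRCh38 and the tool FastQC 0.10.1 are named per the submitters' processing notes. Aligner, counter and strand setting were not given in the sources used here. All 58735 identifiers are in GENCODE 29, which gave positions and lengths, and symbols were matched for 58207.

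The counts were fitted with edgeR 4.0.16 in R 4.3.3 (quasi-likelihood, robust, TMM, minimum count 10, minimum total 15, Benjamini-Hochberg threshold 0.05 over 16250 genes). TMM factors ranged from 0.9395 to 1.065. The test was checked on simulated counts. Replicates of a subset differed by more than sampling noise (chi-square per degree of freedom 2.88 and 1.82). With 2 libraries against 2, a permutation test cannot go below p = 0.333, so none was run. Alternatives used DESeq2 1.42.0 and limma 3.58.1 (voom), other scalings and filters, a replicate block and omission of single libraries. Members and lists were chosen with earlier results of these data known. Other named genes were fixed by role or as up to 4 per list with the smallest adjusted p, except where stated. One gene that this rule names is not reported here.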

Additional observations from a re-analysis of the deposited data

How the results depend on the processing

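Of the 10 genes, 6 passed the threshold as reported, 5 to 6 with single libraries left out, 7 with scaling by library size alone and 6 under each other fit, but 2 when a 1.5-fold difference was also required. With scaling by library size alone, 3124 of all genes were lower (4771 as reported), and 54 of the other arginine methylation genes were higher and 14 lower (29 and 24 as reported). Under that scaling the log2 fold changes of PRMT5 (0.07), CARM1 (0.14), CLNS1A (0.12) and NDUFAF7 (0.06) changed sign, CARM1 passing the threshold. With single libraries left out, CARM1 ranged from -0.11 to 0.03 (positive without ICAM1-high replicate 1) and CLNS1A from -0.12 to 0.00. With a replicate block, 9812 of all genes (9706 as reported), 6 of the 10 and 55 of the other arginine methylation genes (53 as reported) were called. The correlation of deviations between same-numbered libraries was 0.0417, so the numbers were not taken as pairs. Of 575 comparisons of 48 genes with 12 other fits, 551 kept direction and call. The order per length in the mean over the 4 libraries held for 10 of 10 genes with the longest transcript and 7 with APPRIS lengths. In the ICAM1-high mean, however, PRMT6 came after PRMT2 and PRMT7 with both of these lengths. With merged exons, the order of the mean over the 4 libraries held for fewer genes in single libraries. These were 5 and 5 in ICAM1-high replicates 1 and 2, and 5 and 6 in ICAM1-low replicates 1 and 2. A length for MANE or Ensembl canonical transcripts was not run, since the annotation marks none. Depth limits PRMT8 and, in ICAM1-low, PRMT6 to upper bounds of 0.161 to 0.196 CPM. The cause of these changes was not tested.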
